A study of Mus musculus with 8 samples.

Results

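The genes described here are 10 markers of smooth muscle cells and pericytes, the cells that wrap blood vessels, in mouse brown adipose tissue (BAT). They were taken by symbol from the deposited count matrix: Acta2, Tagln, Myh11, Cnn1, Myl9 and Tpm2 encode parts of the contractile apparatus, and Rgs5, Pdgfrb, Notch3 and Cspg4 encode receptors, a surface proteoglycan and a regulator of receptor signalling. They are 10 of the 56953 genes in the matrix, and all 10 are among the 9876 genes that passed the low-count filter. The rule uses the gene symbol and no measured value.

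RNA from BAT of 4 control (CTR) mice and 4 mice with cancer-associated cachexia (CAC) was sequenced, 1 library per mouse. All were wild-type C57BL/6J mice of 8 to 10 weeks, male or female, and the labels do not give the sex of each mouse. CTR mice received PBS, and CAC mice received 3000000 Lewis lung carcinoma (LLC) cells under the skin of the right flank. LLC is a mouse lung tumour line, the animals were monitored for 21 days, and only mice that developed a tumour entered the CAC group. The comparison asks how BAT of cachectic mice differs from that of control mice. Library totals ran from 2454493 to 4827956 counts in CTR and from 1823167 to 3392538 in CAC, and the upper limit left by a count of 0, which is 3 counts, comes to 0.661 to 1.622 CPM. CPM is the count scaled to a common library size, and such limits cover counting error only. The library sizes behind all CPM values were adjusted by TMM, which evens out differences in composition. Differences are log2 fold changes of CAC against CTR from the edgeR quasi-likelihood test, and adjusted p-values are Benjamini-Hochberg values over all 9876 genes.

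Vascular smooth muscle cells ring arteries and veins and set vessel calibre by contracting, whereas pericytes sit on capillaries, share the basement membrane with the endothelium and take part in keeping the barrier. Both are called mural cells. Endothelial PDGF-B holds pericytes on the vessel through the receptor PDGFRB, and Jagged ligands act on NOTCH3 in smooth muscle. Genes of the contractile apparatus are switched on by serum response factor (SRF) with its partners of the myocardin family, which bind a DNA element known as the CArG box. BAT is densely vascularized, and mural cells and their precursors have been studied there as a source of new adipocytes.

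The CArG box has a pair of C, a core of A or T and a pair of G, 10 bases in all. RefSeq start sites on GRCm38.p6 were at hand for 7 of the 10 genes, all but Tagln, Myh11 and Pdgfrb. In the 250 bases before the start, boxes with at most 1 G or C in the 6-base core were found for 2 of these genes, Myl9 and Acta2. All boxes found are shown, each in capitals with 10 bases on either side. The pattern reads the same on both strands. In Myl9 the boxes lie 161 to 152 and 99 to 90 bases before the start (chr2:156775293-156775322 and chr2:156775355-156775384, plus strand). In Acta2 they lie 84 to 75 and 34 to 25 bases before it (chr19:34255438-34255467 and chr19:34255388-34255417, minus strand). GENCODE M21 starts the Acta2 transcript further upstream, so both of its boxes fall within the annotated first exon there. The windows of Myl9, Cnn1, Cspg4 and Tpm2 also reach into the GENCODE gene. For Tpm2, on the minus strand, the window is chr4:43523555-43523804 and the gene starts at 43523765, so most of that window lies inside the gene.
Myl9 distal box: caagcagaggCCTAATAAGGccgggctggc
Myl9 proximal box: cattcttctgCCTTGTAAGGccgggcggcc
Acta2 distal box: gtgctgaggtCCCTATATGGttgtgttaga
Acta2 proximal box: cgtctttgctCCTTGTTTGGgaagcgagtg

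The distal Myl9 box has no G or C in its core, a form found in 1.47% of 32851 RefSeq windows of this length. The other 3 boxes have 1, and 8.59% of windows hold a box of either form. A match describes these letters only, and the lack of one in the windows of the other 5 genes says only that these letters are not there.

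None of the 10 markers passed an adjusted p of 0.05 between CAC and CTR in edgeR, against 92 of all 9876 genes (0.932%). At an unadjusted p below 0.05, 5 of the 10 were found: Myl9, Cnn1, Tpm2 and Myh11 on the higher side in CAC, where 7.01% of all genes fall, and Pdgfrb on the lower side, where 5.93% fall. DESeq2 and limma-trend likewise called none, with 2 and 5 markers at an unadjusted p below 0.05. The log2 fold change was above 0 for all 6 contractile genes, with a median of 0.57, and below 0 for all 4 signalling genes, with a median of -0.39. Over all tested genes, 4935 lay above 0 and 4941 below, with a median of 0. Without CTR replicate 3, 1 marker passed the adjusted threshold, Myl9, and the count at an unadjusted p below 0.05 ranged from 1, without CTR replicate 2, to 4 over the fits that each left out 1 library. A p above the threshold does not show that the levels were alike. In bulk tissue, fewer cells of a type and less RNA per cell cannot be told apart.

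**Figure D1:**
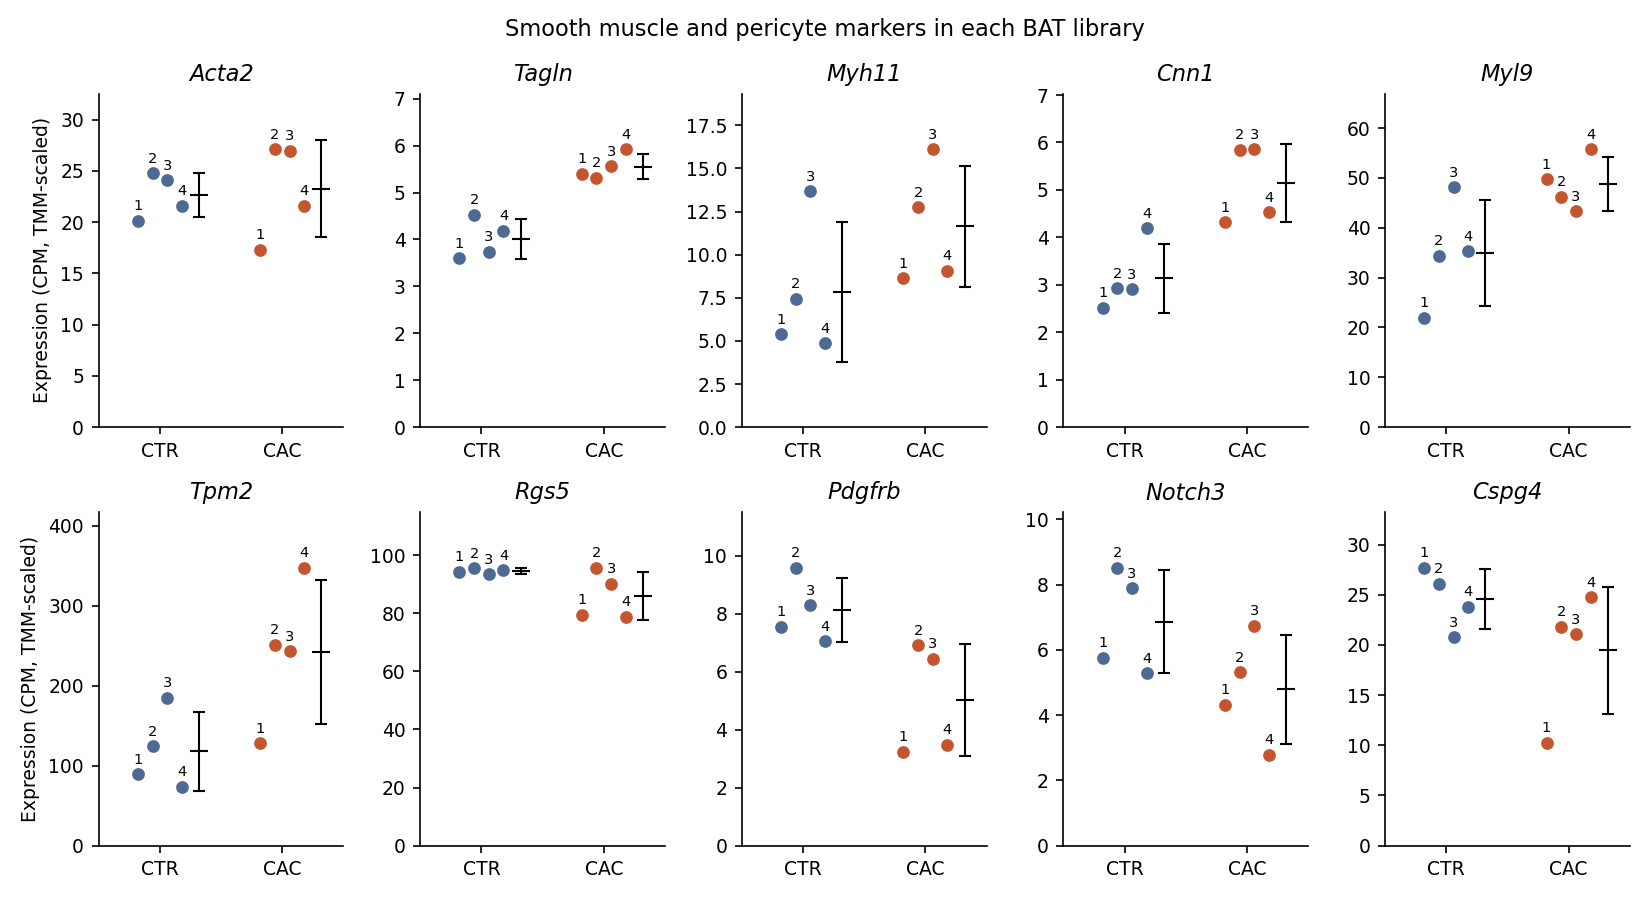
Expression of each marker (y axis, TMM-scaled CPM, starting at 0) in the 4 CTR and 4 CAC libraries (x axis, numbers are replicates), with the group mean and SD as the bar beside the points. All CAC points lie above all CTR points for Tagln and Cnn1 and below them for Pdgfrb, and the groups overlap for the other 7 genes.

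Acta2, alpha smooth muscle actin and the marker most often used for these cells, had the fold change nearest to 0 of the 10. Its CPM were 20.2, 24.8, 24.1 and 21.6 in CTR replicates 1 to 4 and 17.3, 27.1, 27.0 and 21.6 in CAC replicates 1 to 4. CAC replicate 1 was the lowest and CAC replicates 2 and 3 the highest of all libraries, so the groups overlapped on both sides. Means were 22.7 ± 2.15 for CTR and 23.3 ± 4.72 for CAC (SD, n = 4 each), with a log2 fold change of 0.05, a standard error (SE) of 0.16 and an edgeR adjusted p of 0.941. The gene (ENSMUSG00000035783.10) spans 34241090 to 34255590 on the minus strand of chromosome 19 of GRCm38. Its raw counts, 32.5 to 98, hold fractions of reads in 3 libraries, that is reads shared with other places in the genome.

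Tagln encodes transgelin (SM22), an actin-binding protein of smooth muscle. It read 3.60, 4.53, 3.74 and 4.19 CPM in CTR and 5.41, 5.32, 5.57 and 5.93 CPM in CAC. Every CAC library lay above every CTR library, as for 3.64% of all genes. With a log2 fold change of 0.46 (SE 0.27) the edgeR adjusted p was 0.511. The values rest on 9 to 19 counts per library. Tagln (ENSMUSG00000032085.6, chromosome 9, 45929619 to 45936058, minus strand) shares 1241 of its 1988 exonic bases with the antisense gene Gm48529, which held 3.5 to 13.5 counts, and 108 bases with Pcsk7. The strand setting of the counting is not given in the sources used here, so reads of Tagln and Gm48529 may not be separable.

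Cnn1, calponin 1, a protein that restrains actomyosin in smooth muscle, had the same order of groups. Its levels were 2.52, 2.93, 2.91 and 4.19 CPM in CTR and 4.33, 5.85, 5.86 and 4.53 CPM in CAC. The lowest CAC library, replicate 1, stood just above the highest CTR library, replicate 4. Means were 3.14 ± 0.73 for CTR and 5.14 ± 0.83 for CAC, and the log2 fold change was 0.67 (SE 0.31, edgeR unadjusted p = 0.0388, adjusted p = 0.350). Counts were 7 to 20 per library. Cnn1 (ENSMUSG00000001349.6) lies on chromosome 9 from 22099216 to 22109630, plus strand.

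Myl9, the regulatory light chain of smooth muscle myosin, had the smallest p of the 10 genes. CTR libraries read 22.0, 34.4, 48.1 and 35.3 CPM and CAC libraries 49.7, 46.3, 43.4 and 55.8 CPM. CTR replicate 3 reached into the CAC range and CTR replicate 1 was the lowest by a wide margin. This gave a log2 fold change of 0.49 (SE 0.17, edgeR unadjusted p = 0.0120, adjusted p = 0.229). Without CTR replicate 3 it was 0.66 with an adjusted p of 0.0446, and adjusted p-values over the 18 alternatives ran from 0.0446 to 0.773. With 61 to 160 counts per library this was among the better measured contractile genes. Myl9 (ENSMUSG00000067818.7) lies on chromosome 2 from 156775420 to 156781658, plus strand, and its CArG boxes are shown above.

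Myh11, the heavy chain of smooth muscle myosin and a gene largely restricted to that cell type, varied widely within groups. It read 5.40, 7.46, 13.7 and 4.85 CPM in CTR and 8.65, 12.8, 16.1 and 9.06 CPM in CAC. CTR replicate 3 exceeded 3 of the 4 CAC libraries. The log2 fold change was 0.66 (SE 0.30, edgeR unadjusted p = 0.0415, adjusted p = 0.359), and it was 1.01 without CTR replicate 3 and 0.42 without CAC replicate 3. Myh11 (ENSMUSG00000018830.11) spans 14194535 to 14291372 on chromosome 16, minus strand, with 15 to 55 counts per library.

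Tpm2 encodes beta-tropomyosin, which lies along actin filaments in smooth muscle and also in skeletal muscle fibres. It showed the largest fold of the 10 genes, with means of 118 ± 49.4 CPM for CTR and 243 ± 90.0 CPM for CAC (SD, n = 4 each). The libraries read 89.6, 124.4, 185.1 and 73.6 CPM in CTR and 128.1, 251.5, 243.2 and 347.9 CPM in CAC. CAC replicate 1 fell inside the CTR range, and the other 3 CAC libraries were above it. On the log2 scale the fold change was 1.05 (SE 0.41, edgeR unadjusted p = 0.0396, adjusted p = 0.353). Tpm2 (ENSMUSG00000028464.17) lies on chromosome 4 from 43514711 to 43523765, minus strand. It had 237 to 998 counts per library, with fractions of reads in 3 libraries.

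Tpm2 and Myh11 moved with skeletal muscle genes across the libraries. The list of 13 skeletal muscle fibre genes (Acta1, Ckm, Myh1, Myh2, Myh4, Myl1, Mylpf, Tnnt3, Tnnc2, Tnni2, Casq1, Myoz1 and Des) summed to 1639, 2865, 3588 and 1496 CPM in CTR and 3059, 4379, 5477 and 5044 CPM in CAC. All 13 had a log2 fold change above 0, with a median of 0.96. In edgeR 7 had an unadjusted p below 0.05 on the higher side, where 7.01% of all genes fall. Myoz1 alone passed the adjusted threshold (edgeR adjusted p = 0.0460), which 0.932% of all genes passed. Smooth muscle also makes 1 of the 13, Des. Tpm2 followed the mean log2 CPM of the list over the 8 libraries with Pearson's r of 0.951 (exact permutation p = 0.000298, adjusted over 10 relations p = 0.00298) and a Spearman coefficient of 0.905 (exact permutation p = 0.00456, adjusted p = 0.0362). Without the 2 farthest libraries, CTR replicates 1 and 4, r was 0.896, and it was 0.977 within CTR and 0.842 within CAC.

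For Myh11, r was 0.903 (exact permutation p = 0.00313, adjusted p = 0.0156) and the Spearman coefficient 0.881 (exact permutation p = 0.00724, adjusted p = 0.0362). It was 0.702 without CTR replicates 1 and 4, and was 0.934 within CTR and 0.728 within CAC. The other 8 markers had adjusted p-values of 0.139 or more in exact permutation tests. Myl9 had r of 0.712 but a Spearman coefficient of 0.476. Acta2 had r of 0.553 over all libraries, 0.845 within CTR and 0.882 within CAC. Among the signalling genes r was below 0 for all 4, from -0.303 for Rgs5 to -0.0993 for Notch3, but above 0 for all 4 after centring within groups, from 0.269 for Rgs5 to 0.566 for Pdgfrb. Within CTR alone r ran from -0.517 for Cspg4 to 0.940 for Notch3, and within CAC alone from 0.264 for Notch3 to 0.923 for Cspg4. Per 100 CPM of the skeletal muscle list, Tpm2 read 5.47, 4.34, 5.16 and 4.92 CPM in CTR and 4.19, 5.74, 4.44 and 6.90 CPM in CAC, with medians of 5.04 and 5.09. The groups overlapped on this scale, as they did unscaled. Cardiac muscle markers summed to at most 5.86 CPM in any library, and Myl7 had no count.

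**Figure D2:**
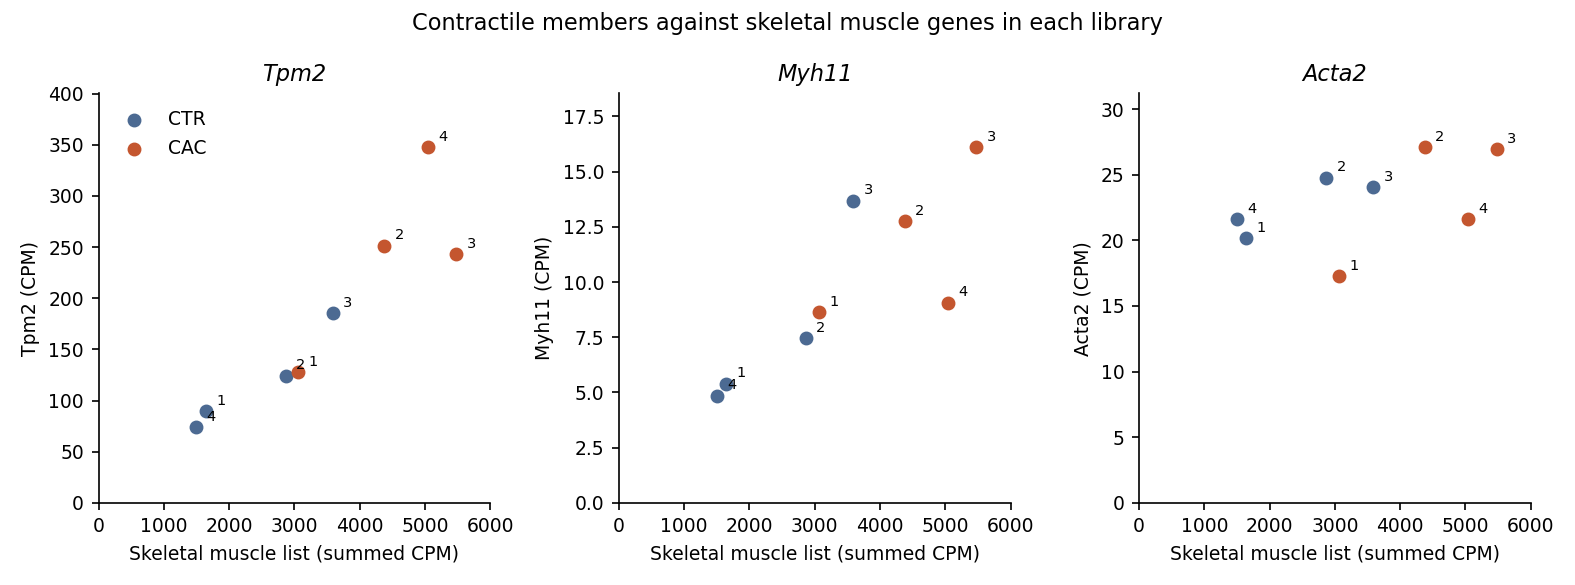
CPM of Tpm2, Myh11 and Acta2 (y axes, from 0) against the summed CPM of 13 skeletal muscle genes (x axis) in each library, numbered by replicate. Tpm2 rises with the list through both groups (r = 0.951 on the log2 scale), Myh11 does so with CAC replicate 4 low for its muscle sum, and Acta2 (r = 0.553) rises with it inside each group (0.845 in CTR and 0.882 in CAC).

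A fit with the list's mean level as a covariate, chosen after seeing the data, gave a log2 fold change of 0.14 for Tpm2 (SE 0.21, edgeR adjusted p = 0.862) and of -0.25 for Myh11 (SE 0.34, adjusted p = 0.853). Acta2 stood at -0.25 (SE 0.23) and Myl9 at 0.24 (SE 0.23) in it. Tagln (0.42, SE 0.43) and Cnn1 (0.76, SE 0.49) stayed close to their values without it. The signalling genes lay further below 0, with Pdgfrb at -1.06 (SE 0.39, edgeR unadjusted p = 0.0132, adjusted p = 0.381) and Notch3 at -0.998 (SE 0.41, unadjusted p = 0.0240, adjusted p = 0.428). None of the 10 passed the adjusted threshold. The list's sum overlapped between the groups but had a median of 2252 CPM in CTR and 4712 CPM in CAC, so this fit cannot tell the muscle level and the group fully apart.

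**Figure D3:**
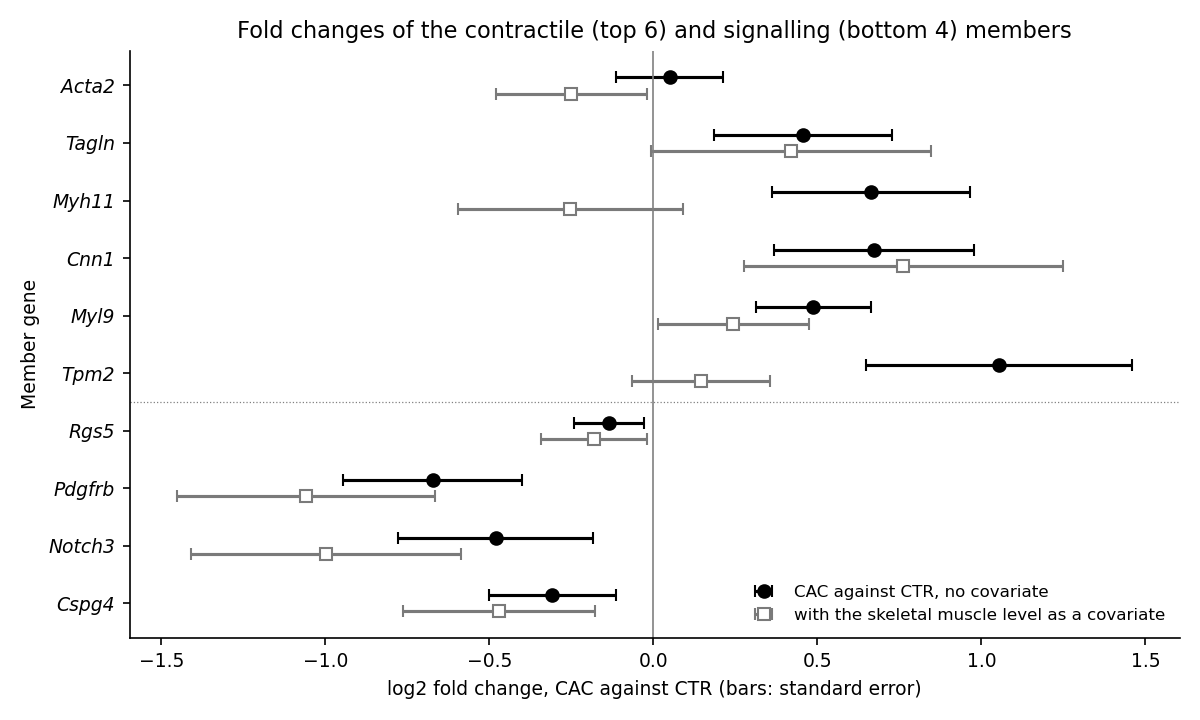
log2 fold change of CAC against CTR (x axis) for each marker (y axis), with bars for the standard error, in the edgeR fit without a covariate (filled circles) and with the skeletal muscle level as a covariate (open squares). Tpm2 goes from 1.05 to 0.14 and Myh11 from 0.66 to -0.25, whereas Pdgfrb goes from -0.67 to -1.06.

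Rgs5, a regulator of G protein signalling and a widely used pericyte gene, was the steadiest of the 10 in CTR. It read 94.3, 95.6, 93.4 and 94.8 CPM there and 79.5, 95.7, 90.3 and 78.8 CPM in CAC. CAC replicate 2 stood level with the highest CTR library and the other 3 were below all of them. Means of 94.5 ± 0.94 and 86.1 ± 8.31 CPM gave a log2 fold change of -0.14 (SE 0.11, edgeR adjusted p = 0.640). Rgs5 (ENSMUSG00000026678.11, chromosome 1, 169655501 to 169695813, plus strand) had 147 to 430 counts per library, all whole.

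Pdgfrb, the receptor that anchors pericytes to the vessel, was lower in all 4 CAC libraries than in any CTR library, as for 3.40% of all genes. CTR read 7.56, 9.59, 8.30 and 7.06 CPM and CAC 3.24, 6.91, 6.45 and 3.49 CPM. CAC replicates 1 and 4 were the low ones, and CAC replicates 2 and 3 came close to the lowest CTR library. The log2 fold change was -0.67 (SE 0.27, edgeR unadjusted p = 0.0227, adjusted p = 0.286) with 6 to 36 counts per library. Leaving out CAC replicate 4 gave -0.51 and leaving out CAC replicate 3 gave -0.87. Adjusted p-values were 0.252 to 0.552 over 17 alternatives. Pdgfrb is ENSMUSG00000024620.12, on chromosome 18 from 61045150 to 61085061, plus strand.

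Notch3, the Notch receptor of smooth muscle and pericytes, read 5.76, 8.52, 7.88 and 5.29 CPM in CTR and 4.33, 5.32, 6.74 and 2.79 CPM in CAC. CAC replicates 1 and 4 were again the lowest, and CAC replicates 2 and 3 lay within the CTR range. Its log2 fold change was -0.48 (SE 0.30, edgeR adjusted p = 0.529), with 8 to 32 counts per library. It was -0.26 without CAC replicate 4 and -0.77 without CAC replicate 3. Notch3 (ENSMUSG00000038146.9, chromosome 17, 32120820 to 32166852, minus strand) shares 488 of its 8089 exonic bases with the antisense gene Gm17276, which had 1 to 12 counts.

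Cspg4 encodes NG2, a proteoglycan on pericytes and on glial precursors. It read 27.7, 26.1, 20.7 and 23.8 CPM in CTR and 10.3, 21.8, 21.1 and 24.8 CPM in CAC. CAC replicate 1 alone was outside the CTR range, at 19 counts, and the other 3 CAC libraries were inside it. In edgeR the log2 fold change was -0.31 (SE 0.19, adjusted p = 0.539), and -0.12 without CAC replicate 1. Cspg4 (ENSMUSG00000032911.7) lies on chromosome 9 from 56865033 to 56899870, plus strand.

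The summed level of the 4 signalling genes was 135.3, 139.8, 130.3 and 131.0 CPM in CTR and 97.3, 129.8, 124.5 and 109.8 CPM in CAC. All CAC sums were below all CTR sums, and Rgs5 made up most of each. The 5 contractile genes other than Tpm2 summed to 53.6, 74.0, 92.5 and 70.1 CPM in CTR and 85.4, 97.3, 97.9 and 96.9 CPM in CAC, with CTR replicate 3 inside the CAC range. The ratio of this contractile sum to the signalling sum was 0.396, 0.530, 0.710 and 0.535 in CTR and 0.878, 0.750, 0.786 and 0.883 in CAC. It was higher in every CAC library than in any CTR library, a description with no test, since the genes were split by role after earlier results were known.

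**Figure D4:**
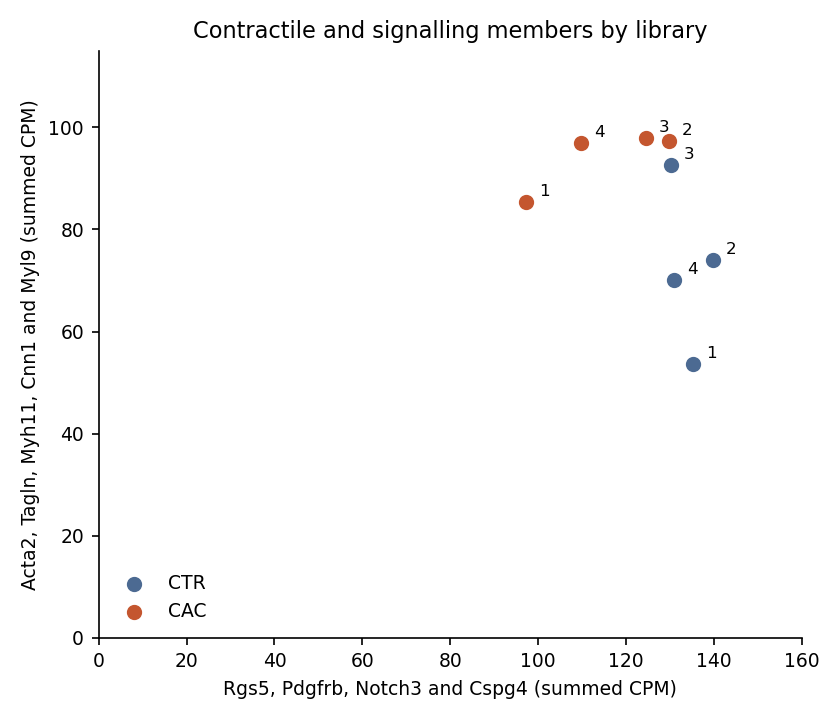
Summed CPM of Acta2, Tagln, Myh11, Cnn1 and Myl9 (y axis) against summed CPM of Rgs5, Pdgfrb, Notch3 and Cspg4 (x axis) for each library, both axes from 0, numbered by replicate. All CAC libraries sit to the left of all CTR libraries, whereas on the y axis CTR replicate 3, at 92.5 CPM, lies above CAC replicate 1, at 85.4 CPM.

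Per kilobase of exon, CTR means were highest for Tpm2 (40.6 CPM per kb), Myl9 (30.1), Rgs5 (20.8) and Acta2 (10.3). The other 6 genes had 2.06 CPM per kb or less, down to 0.849 for Notch3. Myh11, at 1.03 CPM per kb, was well under Acta2. In CAC the same 4 genes led, with Tpm2 at 83.4, Myl9 at 42.0, Rgs5 at 18.9 and Acta2 at 10.6 CPM per kb. The sources used here do not say where on a transcript the reads of this kit fall, so length scaling may favour short genes such as Myl9, with 1162 exonic bases. Without length scaling the order differed, with CTR means of 118 CPM for Tpm2, 94.5 for Rgs5, 34.9 for Myl9, 24.6 for Cspg4 and 22.7 for Acta2.

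Across the 8 libraries the log2 CPM of the contractile genes correlated positively in 15 of 15 pairs, with r from 0.109 (Acta2 and Tagln) to 0.819 (Tagln and Cnn1) and a median of 0.589. The signalling genes did so in 6 of 6 pairs, from 0.211 (Notch3 and Cspg4) to 0.955 (Rgs5 and Pdgfrb). Between a contractile and a signalling gene r was positive in 5 of 24 pairs, with a median of -0.339. After centring within CTR and CAC, the contractile pairs were positive in 13 of 15 with a median of 0.235, the signalling pairs in 5 of 6 with a median of 0.543, and the between-set pairs in 18 of 24 with a median of 0.236. Acta2 and Pdgfrb reached 0.913. Rgs5 and Pdgfrb kept 0.930 after centring. These values describe 8 libraries that share depth and scaling and carry no test. Acta2 tracked the mean of the other 9 genes most closely (r = 0.945).

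Outside the list, the 5 of 8611 genes of at least 5 CPM that were nearest to the contractile profile over the 8 libraries were Ttll7 (r = 0.982), Jsrp1 (0.976), Pgam2 (0.976), Serpinb6a (0.974) and Tnnt3 (0.971). Jsrp1, Pgam2 and Tnnt3 are skeletal muscle genes. Nearest to the signalling profile were Col6a3 (0.986), Ulk1 (0.977), Aplnr (0.974), Rbpms (0.962) and Psme2 (0.957). Col6a3 is a collagen VI chain and Aplnr the apelin receptor of endothelium. None of these 10 genes passed an adjusted p of 0.05 in edgeR.

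Among 18 other smooth muscle genes 13 were tested, 11 with a log2 fold change above 0 and a median of 0.31. In edgeR 1 rose past the adjusted threshold and 4 had an unadjusted p below 0.05, all on the higher side. For this list and those below, 0.932% of all tested genes passed the adjusted threshold. At an unadjusted p below 0.05, 7.01% of all genes fell on the higher side and 5.93% on the lower. The gene that rose was Pdlim3, a protein of the Z-disc and of actin bundles in skeletal as well as smooth muscle, at 2.52, 2.13, 2.91 and 1.76 CPM in CTR and 3.78, 13.3, 5.57 and 6.97 CPM in CAC. Its log2 fold change was 1.66 (SE 0.37, edgeR adjusted p = 0.0308). CAC replicate 2 was far above the rest, and Pdlim3 passed in 2 of the 6 fits that left out 1 library and kept the gene, with adjusted p from 0.0151 to 0.121. It did not pass with limma-trend or with the skeletal muscle level as a covariate, and it was below the filter without mitochondrially encoded genes and with at least 10 counts in every library. Synpo2 (log2 fold change 0.86, adjusted p = 0.120) and Mustn1 (0.67, adjusted p = 0.258), both also made in skeletal muscle, came next.

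Among 15 other pericyte genes 10 were tested, with 5 above and 5 below 0 and a median of 0.14. The gene that passed was Higd1b, a mitochondrial protein gene used as a pericyte marker, and it rose. Its levels were 2.52, 2.93, 4.98 and 5.07 CPM in CTR and 14.6, 8.51, 11.4 and 7.32 CPM in CAC, with every CAC library above every CTR library. The log2 fold change was 1.39 (SE 0.29, edgeR adjusted p = 0.0190), opposite in sign to those of the 4 signalling markers. It passed in 5 of the 8 fits that each left out 1 library, with adjusted p from 0.0145 to 0.0817. It failed without CTR replicate 1, without CTR replicate 2 and without CAC replicate 3, where the log2 fold change was 1.26 to 1.33. With the skeletal muscle level as a covariate the log2 fold change was 1.70 with an adjusted p of 0.138, and the gene was not tested with at least 10 counts in every library. Kcnj8, the pore of the pericyte potassium channel, averaged 16.2 CPM for CTR and 12.0 CPM for CAC (log2 fold change -0.47, adjusted p = 0.296), and Rgs4 stood at 0.45 (adjusted p = 0.430).

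In the PDGF pathway 4 of 5 genes were tested and edgeR called none, with 1 at an unadjusted p below 0.05. This was Pdgfd, a ligand of PDGFRB, at 6.48, 5.59, 4.57 and 6.17 CPM in CTR and 3.24, 1.60, 2.34 and 3.84 CPM in CAC. All CAC libraries were below all CTR libraries, as for Pdgfrb, and the log2 fold change was -1.03 (SE 0.32, edgeR unadjusted p = 0.00391, adjusted p = 0.134). Pdgfb, the ligand made by endothelium, stood at -0.05 (adjusted p = 0.955), and Pdgfra, the fibroblast receptor, at 0.21 (adjusted p = 0.867).

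In the Notch pathway 13 of 19 genes were tested, 7 above and 6 below 0 with a median of 0.03. None was called by edgeR, and 1 had an unadjusted p below 0.05. Hes1, a transcriptional repressor switched on by Notch, read 5.04, 10.9, 6.23 and 6.84 CPM in CTR and 2.16, 4.79, 2.64 and 3.14 CPM in CAC. The highest CAC library was below the lowest CTR library, and the log2 fold change was -1.24 (SE 0.33, edgeR unadjusted p = 0.00106, adjusted p = 0.0763). The adjusted p of Hes1 ran from 0.0702 to 0.286 over the fits that left out 1 library, and with no filter on low counts edgeR called Hes1 (adjusted p = 0.0131). Heyl, a Notch target of mural cells, stood at -0.60 (adjusted p = 0.522) and Rbpj, the DNA-binding partner of Notch, at 0.27 (adjusted p = 0.706).

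Among 16 paralogs of the contractile genes 14 were tested and edgeR called none, with 4 at an unadjusted p below 0.05, all higher. Tagln2, the non-muscle transgelin, read 44.6 ± 3.17 CPM in CTR and 62.4 ± 7.65 CPM in CAC (log2 fold change 0.48, edgeR adjusted p = 0.0618), Actb stood at 0.30 (adjusted p = 0.123) and Tpm3 at 0.36 (adjusted p = 0.296). Without CAC replicate 4, Tagln2 had an adjusted p of 0.0260, and with no filter it had 0.0458.

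No gene was called by edgeR among the other RGS genes (6 of 16 tested, 0 at an unadjusted p below 0.05), the vasomotor genes (6 of 13 tested, 2) or the TGF-beta and angiopoietin genes (9 of 13 tested, 0). DESeq2 also called none in these 3 lists. Rgs4, Rgs19 (log2 fold change -0.55, adjusted p = 0.562) and Rgs2 (0.64, adjusted p = 0.736) had the smallest p in the first. Nos3, the endothelial nitric oxide synthase, was below 0 at -0.55 (adjusted p = 0.245) with no overlap between groups, Npr1, a natriuretic peptide receptor, stood at 0.49 (adjusted p = 0.325) and the endothelin receptor gene Ednrb at 0.49 (adjusted p = 0.488). Angpt1, the mural cell ligand of TIE2, stood at 0.27 (adjusted p = 0.610), Smad3 at 0.39 (adjusted p = 0.639) and Smad2 at 0.22 (adjusted p = 0.736).

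**Figure D5:**
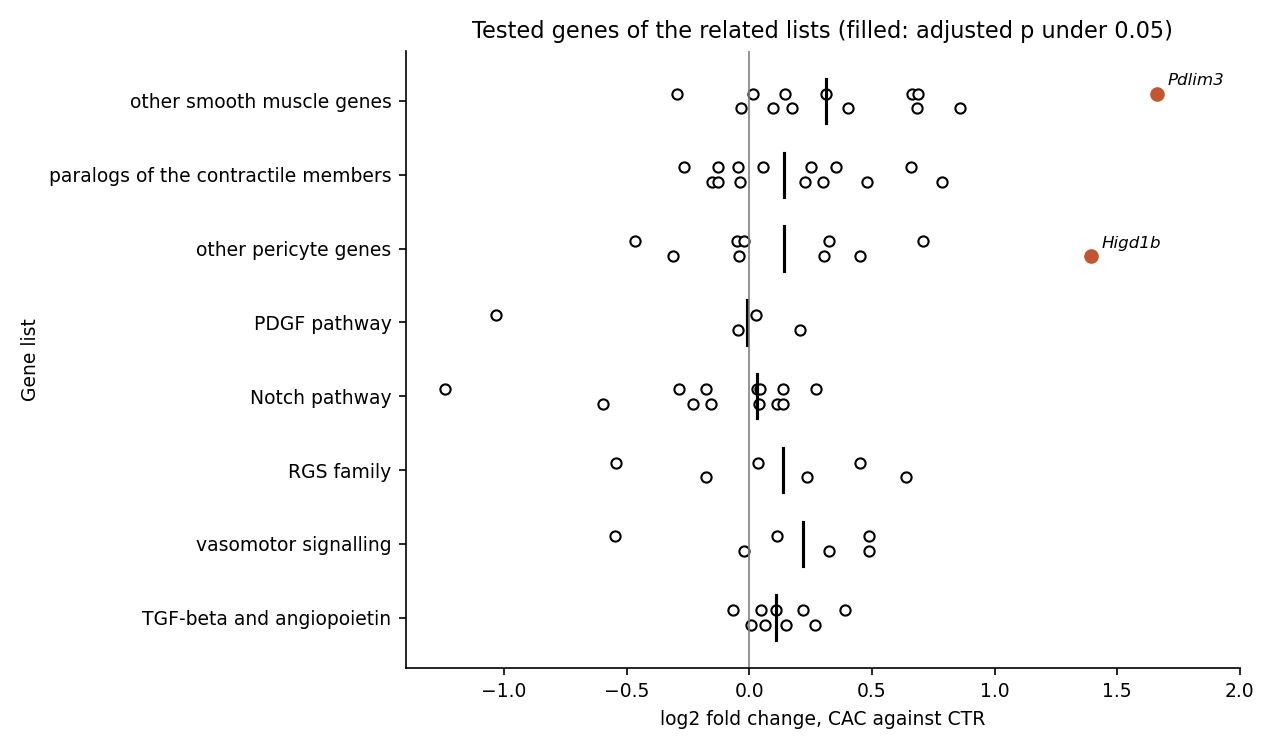
log2 fold change of CAC against CTR (x axis) for each tested gene of 8 lists related to the markers (y axis), with a bar at each list's median. Filled points passed an adjusted p of 0.05 in edgeR, which holds for Pdlim3 (1.66) and Higd1b (1.39).

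Markers of other cells were checked beside the mural genes. Brown adipocyte genes summed to 11660 to 13960 CPM in CTR and 11550 to 15060 CPM in CAC, so the defining cells of the labelled tissue were well represented. Genes of endothelium, the partner of mural cells, summed to 1343 to 1381 CPM in CTR and 1154 to 1600 CPM in CAC. Egfl7 made up most of each sum, at 905 to 975 CPM in CTR and 763 to 1175 CPM in CAC. Of the 10 endothelial genes tested, 2 were called higher in edgeR, Flt1 (log2 fold change 0.53, adjusted p = 0.0166) and Esam (0.62, adjusted p = 0.0201), 4 were above and 6 below 0, and the median was -0.06. Fibroblast and progenitor genes overlapped between groups (1042 to 1338 CPM in CTR, 864 to 1297 CPM in CAC), as did Schwann cell genes. Of the 11 fibroblast and progenitor genes tested, 5 were above and 6 below 0, with a median log2 fold change of -0.146. In edgeR 1 was called higher, Ly6a (log2 fold change 1.02, adjusted p = 0.000238). Col1a2 stood at -0.61 (adjusted p = 0.318) and Col3a1 at -0.59 (adjusted p = 0.423). The summed level of macrophage genes was higher in every CAC library, at 218.6 to 314.1 CPM against 175.1 to 192.9 CPM. Of the 6 tested all were above 0, with a median log2 fold change of 0.565, and 1 was called, C1qa (0.83, edgeR adjusted p = 0.00103). Csf1r (0.48, adjusted p = 0.0778) was also higher in every CAC library than in any CTR library. Cd68, Mrc1, Lyz2 and Cd163 overlapped between groups. The part of these cells in the levels of the 10 markers was not tested. Of the mesothelial markers, Msln, Upk3b and Wt1 had no count and Krt19 at most 1, whereas Lrrn4 had up to 15 counts, 8.11 CPM in CAC replicate 1.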

How the data were processed

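BAT RNA of 4 CTR and 4 CAC mice, 50 ng per library, was sequenced with single-end reads of 75 cycles. The authors aligned reads to mm10 with HISAT2 2.2.1 and counted them with the multi-mapping option of featureCounts. The deposited matrix holds expected counts, with fractions of reads in 25.1% to 28.4% of nonzero values of a library. The authors also deposited a table of normalized signal from DESeq2, where 100.0% of the values compared were the truncated count over a size factor.

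Counts were rounded, filtered by filterByExpr, scaled by TMM and compared with the robust quasi-likelihood test of edgeR 4.0.16 in R 4.3.3, with no covariate. The study used DESeq2, which is an alternative here (1.42.0), as is limma 3.58.1 with a trended prior on log2 of that signal plus 1. The fit was tested on simulated data with known changes, at an adjusted p of 0.05. It called 74 of 98 genes with a log2 change of 1, 95 of 97 with 2 and 16 of 9443 unchanged genes. Changes smaller than 1 were not simulated. Other alternatives were library size and upper quartile scaling, no filter, at least 10 counts per library, dropped decimals, removal of mitochondrially encoded genes (28.5% to 33.8% of counts), a replicate block, looser thresholds and leaving out each library. In the labels, same-numbered CTR and CAC libraries share only a number. Their deviations from the group means correlated at r from -0.02 to 0.04. For the other pairings r ran from -0.05 to 0.04, so whether same-numbered libraries were handled together cannot be told from these values.

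The 10 genes and all lists were chosen with earlier results of these data known. Named genes are the 10 markers, the called genes and the 3 with the smallest p of each pathway list, the called genes of the endothelial, fibroblast and macrophage lists, and the 5 genes nearest to each profile. A further list is not reported here. Correlations used log2 CPM with a prior count of 2 and all 40320 pairings of the libraries. IDs matched GENCODE M21 (GRCm38) without version for 91.4% of genes. CArG boxes were searched in RefSeq windows. Python 3.11.15, pandas 2.3.3, numpy 2.4.6, scipy 1.17.1 and matplotlib 3.10.9 were used. P-values of the fits set the group difference against the spread between these 8 mice. The permutation p-values of the correlations treat all 8 libraries as exchangeable, so they also take in the difference between CTR and CAC. No p was computed for the centred or within-group correlations.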

Additional observations from a re-analysis of the deposited data

Results flagged for a closer look

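In 58 groups of 4 libraries checked for a sample far from the others, 3 were found, against 2.9 expected if 1 in 20 is found by chance. CAC replicate 1 had the lowest summed level of the paralogs of the contractile genes within CAC, 3134 CPM, with the other CAC libraries between 3626 and 3719 CPM. Acta1, which is in this list and in the skeletal muscle list, read 613 CPM in CAC replicate 1. In the other CAC libraries it read 1030 to 1161 CPM. For the summed paralogs, the order of the groups was as follows. All CTR sums were lower than that of CAC replicate 1, at 2508 to 3097 CPM. CAC replicate 2 had the lowest summed level of the PDGF pathway genes, 18.61 CPM, with the others between 33.82 and 36.92 CPM. CTR replicate 1 had the lowest summed level of the vasomotor genes, 75.21 CPM, with the other CTR libraries between 87.36 and 88.63 CPM. None of the 10 markers was found in this way.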

How the results depend on the processing

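The number of all genes called, 92, was 351 with no filter, 140 with the replicate block, 24 with the skeletal muscle level as a covariate (chosen after seeing the data) and 42 to 135 when 1 library was left out. None of the 10 markers was called under any of these except Myl9 without CTR replicate 3, so that the count when 1 library was left out was 0 to 1. The 5 markers at an unadjusted p below 0.05 became 2 with DESeq2, 3 of the 6 markers tested with at least 10 counts in every library, 3 with the replicate block, 2 with the covariate and 1 to 4 when 1 library was left out. The replicate block changed no marker's call. The median log2 fold change became 0.19 for the contractile and -0.74 for the signalling genes with the covariate. The sign turned for Acta2 (-0.25) and Myh11 (-0.25) with the covariate, and Acta2 ran from -0.043 to 0.157 when 1 library was left out. For the other 8 markers the sign held under every alternative run. The correlation with the mean of the other 9 markers turned negative with Spearman's coefficient for Myl9 (-0.071), Pdgfrb (-0.071) and Cspg4 (-0.333). The cause of these changes was not tested. Tagln, Cnn1, Pdgfrb and Notch3 have under 10 counts in at least 1 library, which limits what a fold change of this size can show.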
